A study of Mus musculus with 12 samples.

Results

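The 6 genes of the Notch pathway described here were followed across early nephron structures of the mouse embryo: the ligand Dll1, the receptor Notch1, the glycosyltransferase Lfng, the modulator Dtx1 and the target genes Hey1 and Hes1. They were taken by symbol, as every probe set annotated to exactly 1 of the 6 symbols, which gave 8 probe sets of the 12422 measured, for 6 of 8251 genes. Dll1 and Notch1 had 2 probe sets each and the other genes 1. In Notch signalling a ligand on one cell binds a receptor on its neighbour, the receptor is cut by an ADAM protease and then by gamma-secretase, and its intracellular part moves to the nucleus, where it joins the DNA-binding protein RBPJ. Genes of the Hes and Hey families, which encode transcriptional repressors, are its best known targets. In the developing mouse kidney the pathway is known for its part in forming the proximal segments of the nephron, and it also acts in endothelium.

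The samples were microdissected by morphology from kidneys of wild-type Swiss Webster mice at stage E14.5, and all RNA went through 2 rounds of T7 amplification before hybridisation to Affymetrix arrays. There were 4 groups of 3 arrays: single S-shaped bodies (1 structure per array, replicates 3, 4 and 5), pooled S-shaped bodies (20 structures per array, replicates 1, 2 and 3), renal vesicles (20 per array, replicates 2, 3 and 4) and the unpooled collecting duct, which the study used as its reference (replicates 1, 2 and 3). The renal vesicle is the first epithelial stage of the nephron, the S-shaped body is the stage that follows it, and the collecting duct is a separate epithelium that grows from the ureteric bud. The labels call each array a biological replicate without naming embryos, so p-values here measure the spread between these samples only. These are bulk samples, in which fewer cells of a type and less RNA per cell cannot be told apart. Values below are given in the order of the replicate numbers just listed.

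A level is log2 of the quantile-normalised intensity plus a pseudocount of 7.22, so an intensity of 0 or less stands at a level of 2.85. A value counted as above background when it exceeded, on its array, the size of the 5th percentile of that array's deposited values, which is negative. That limit lay between levels of 4.44 and 5.30 on the 12 arrays. By this measure 48.3 to 54.4% of probe sets were above background on single S-shaped body arrays, against 55.1 to 58.3% on pooled S-shaped body, 56.7 to 59.7% on renal vesicle and 54.9 to 57.9% on collecting duct arrays. Before normalisation the median intensity of the brightest array was 17.8 times that of the dimmest, which was single S-shaped body replicate 3. Of 14 measured collecting duct markers, 10 were above background on all 3 collecting duct arrays and 4 in each nephron group, while of 7 early nephron markers 2, 4, 6 and 3 were above background on all 3 arrays of single S-shaped bodies, pooled S-shaped bodies, renal vesicles and collecting duct. A difference was called at an adjusted p below 0.05 (limma, Benjamini-Hochberg over the 9316 probe sets tested), and differences are log2 values with their standard errors.

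**Figure D1:**
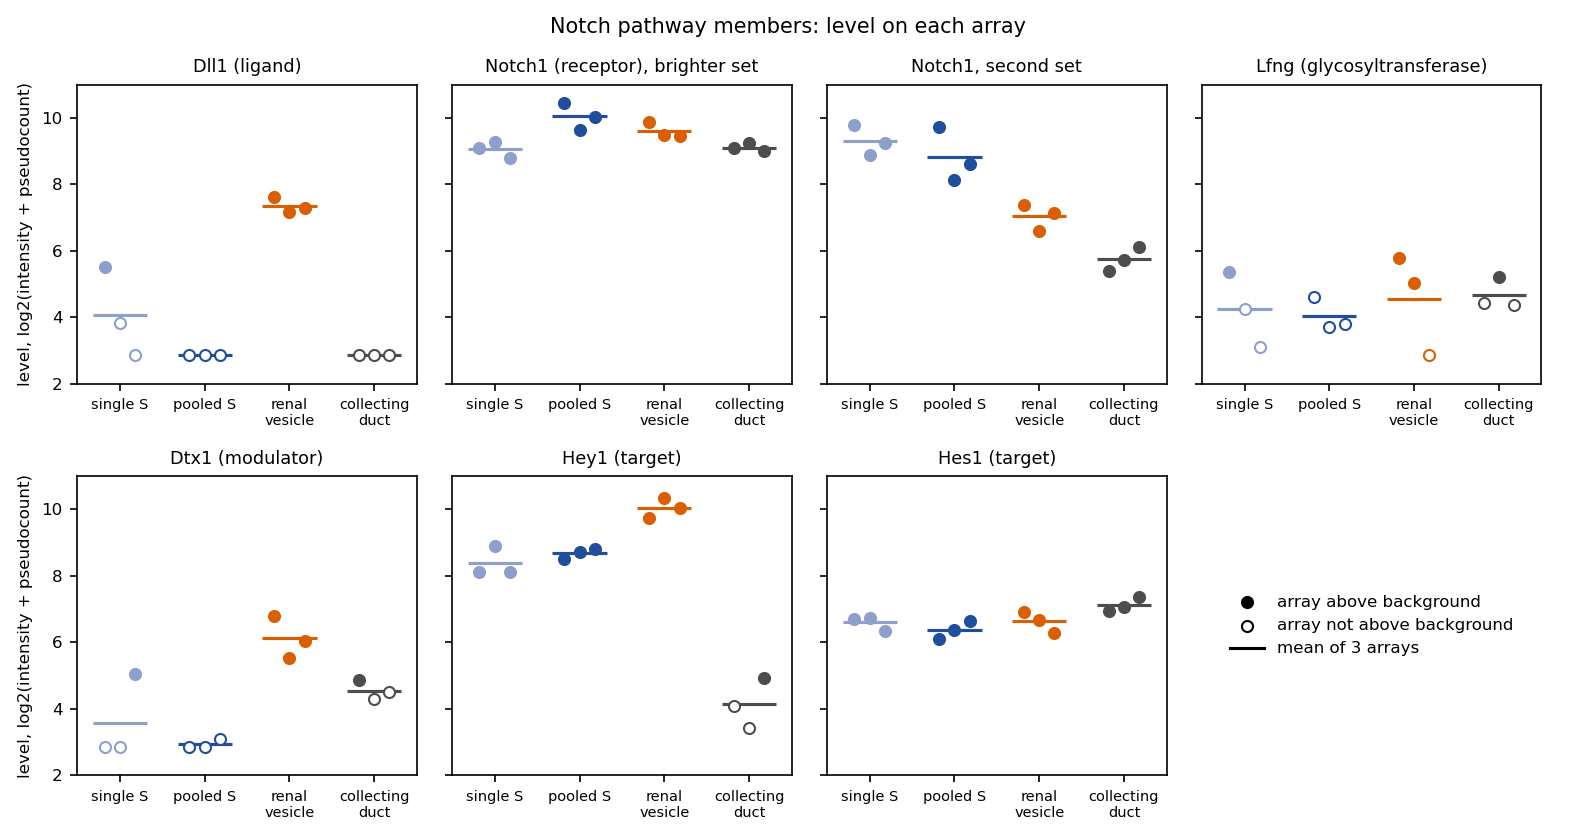
Level of the 6 genes, with both Notch1 probe sets, on each of the 12 arrays, with 1 point per array, a bar at the group mean, and the 4 groups along the x axis; the y axis is the log2 level and open points are arrays on which the probe set was not above background. The 3 renal vesicle arrays stand above all others for Dll1, Dtx1 and Hey1, and the single S-shaped body arrays spread more than the others for Dll1 and Dtx1.

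Dll1, a ligand that presents itself to Notch receptors on neighbouring cells, was a renal vesicle signal on these arrays. Its levels were 5.51, 3.82 and 2.85 in single S-shaped bodies, 2.85 on all 3 arrays of pooled ones, 7.61, 7.16 and 7.28 in renal vesicles, and 2.85 on all 3 collecting duct arrays. All renal vesicle arrays were above background and above every other array, no pooled S-shaped body or collecting duct array was above background, and 1 single S-shaped body array was, replicate 3, the dimmest of the series. Where a whole group lay under background the difference is a bound, taken against the lowest level above background on each of its arrays. The p-value beside a bound is that of the fitted difference, to which a group wholly at 2.85 adds no spread. In the fit of 9 arrays Dll1 passed the filter on mean level through its renal vesicle arrays alone, since all others there stood at 2.85. Dll1 was at least 6.27-fold higher in renal vesicles than in collecting duct (adjusted p = 5.95e-07, limma). It was at least 6.44-fold lower in pooled S-shaped bodies than in renal vesicles (adjusted p = 2.29e-06, limma). Only the renal vesicle arrays added spread of Dll1 to both p-values. In single S-shaped bodies it was lower than in renal vesicles (adjusted p = 0.00485, limma), with a fitted log2 difference of -3.29 ± 0.61. Since 2 of these 3 single S-shaped body arrays were under background, the size of that difference depends on the pseudocount, at -3.92 to -2.17 over those tried. Single and pooled S-shaped bodies were not called different (adjusted p = 0.368, limma), with no fold given, and pooled S-shaped bodies and collecting duct, both under background, have no order. The second Dll1 probe set (the values above are from the brighter one) was above background on 0 of 12 arrays and adds nothing. Against collecting duct the single S-shaped body values were not tested, since the mean lay under the filter. Without single S-shaped body replicate 5 they passed it, through the single S-shaped body arrays alone, and Dll1 was called higher (adjusted p = 0.0420, limma). Only replicate 3 was then above background, with replicate 4 (3.82) under it and collecting duct at 2.85 throughout, adding no spread. No fold is given, and the order is uncertain.

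Notch1, the receptor that binds such ligands, gave different orders with its 2 probe sets. The brighter one read 9.10, 9.27 and 8.80 in single S-shaped bodies, 10.45, 9.64 and 10.03 in pooled ones, 9.88, 9.47 and 9.45 in renal vesicles, and 9.08, 9.22 and 8.99 in collecting duct. It was above background on all 12 arrays, pooled S-shaped bodies were highest on the mean, and single S-shaped bodies overlapped collecting duct. Only its difference between pooled S-shaped bodies and collecting duct was called, at 0.94 ± 0.20 (adjusted p = 0.00306, limma), and it was lost on the deposited scale (0.49, adjusted p = 0.0923). The neighbouring steps did not pass with this probe set: pooled S-shaped bodies against renal vesicles gave 0.44 ± 0.20 (adjusted p = 0.108, limma), and renal vesicles against collecting duct gave 0.51 ± 0.20 (adjusted p = 0.0855, limma). Without pooled S-shaped body replicate 2 the first was called (0.64, adjusted p = 0.0262), and without pooled S-shaped body replicate 1 so was the second (0.51, adjusted p = 0.0493, limma). With the mean of both probe sets, both were called (1.11, adjusted p = 0.00788, and 0.90, adjusted p = 0.0339). Single S-shaped bodies gave -0.98 ± 0.22 against pooled ones (adjusted p = 0.0906, limma), -0.55 ± 0.20 against renal vesicles (adjusted p = 0.0730) and -0.04 ± 0.17 against collecting duct (adjusted p = 0.884). In a fit of all 12 arrays the first 2 of these were called (adjusted p = 0.0183 and 0.0486, limma).

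The second Notch1 probe set was steeper. It read 9.79, 8.88 and 9.25 in single S-shaped bodies, 9.71, 8.12 and 8.61 in pooled ones, 7.37, 6.59 and 7.12 in renal vesicles, and 5.39, 5.73 and 6.10 in collecting duct. Both S-shaped body groups lay above renal vesicles and these above collecting duct, with no overlap at either step, while single and pooled S-shaped bodies overlapped. Against collecting duct the difference was 3.57 ± 0.30 in single S-shaped bodies, 3.08 ± 0.37 in pooled ones and 1.29 ± 0.37 in renal vesicles (adjusted p = 8.10e-05, 7.98e-05 and 0.0280, limma). The last call was lost without renal vesicle replicate 2 or 4 or collecting duct replicate 1 or 2 (adjusted p = 0.0923, 0.0753, 0.0984 and 0.0722), and with no filter (0.0962), and its sign turned on the deposited scale (-0.18). Against renal vesicles it was 2.28 ± 0.30 in single and 1.79 ± 0.37 in pooled S-shaped bodies (adjusted p = 0.00111 and 0.00329, limma). On the deposited scale the single S-shaped body values were 0.60 against collecting duct and 0.78 against renal vesicles, and neither was called (adjusted p = 0.266 and 0.25). So the probe sets disagree on single S-shaped bodies, where the brighter one gave no call. Which transcript parts they read is not given in the sources used here. Of 14 measured endothelial markers, 12 were above background on all 3 single S-shaped body arrays, 14 on pooled S-shaped body, 6 on renal vesicle and 1 on collecting duct arrays. Their summed normalised intensity was 7206 to 9508 in single S-shaped bodies, 7744 to 9405 in pooled ones, 1579 to 3302 in renal vesicles and 103 to 193 in collecting duct. The podocyte precursor markers, 6 measured, summed to 5103 to 6291, 5095 to 6229, 1505 to 5258 and 322 to 385 in the same order of groups. The stromal markers, 7 measured, summed to 3492 to 4473, 2438 to 3401, 354 to 1470 and 12.8 to 34.3, and the red blood cell markers, 4 measured, to 1153 to 4580, 5194 to 6839, 87.6 to 763 and 124 to 177. The part of these 4 lists in the Notch1 values was not tested. The control signals that compare the 3′ end of a transcript with its 5′ end or middle differed too, without a common order. The 3′ to 5′ ratio of Gapdh was 21.2 to 28.3 in pooled S-shaped bodies and 8.23 to 14.53 on the other arrays. The 3′ to middle ratio of actin was 3.22 to 3.92 in pooled S-shaped bodies and 6.29 to 10.4 on the other arrays. The 3′ to 5′ ratio of actin was 75.8 to 91.4 in single and 31.6 to 46.6 in pooled S-shaped bodies, 36.1 to 43.3 in renal vesicles and 27.7 to 89.4 in collecting duct. Their part was not tested either.

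**Figure D2:**
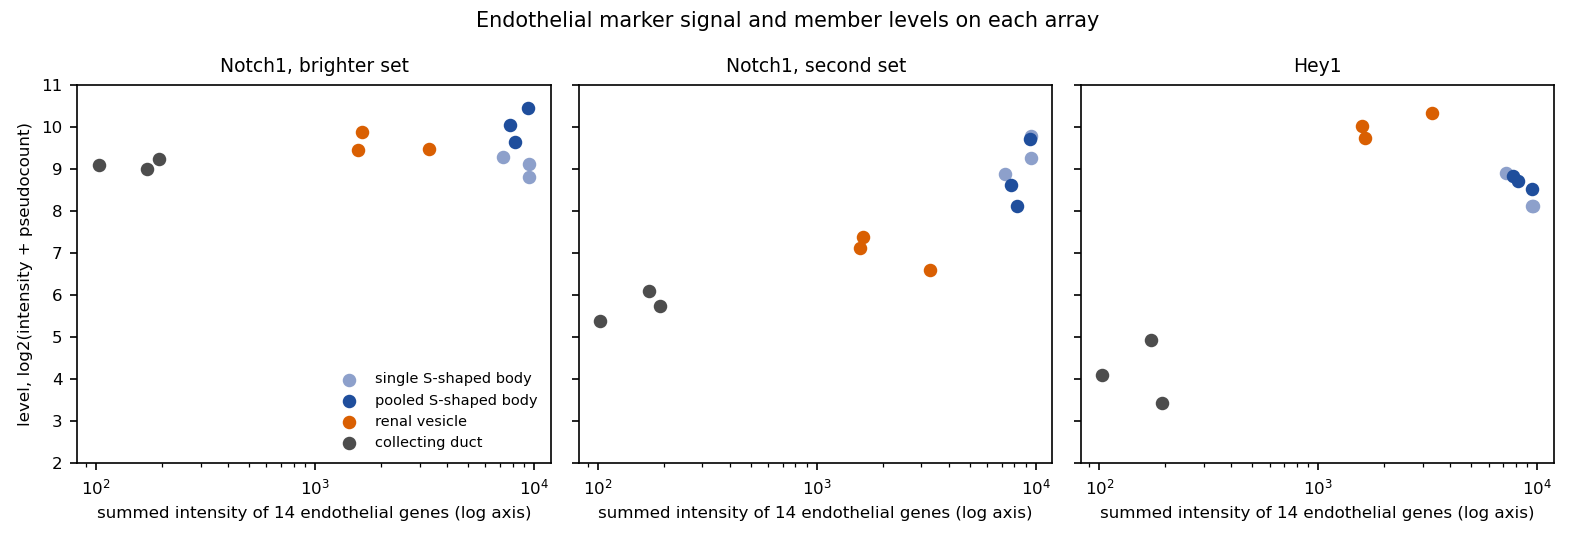
Summed normalised intensity of 14 endothelial markers (x axis, log scale) against the log2 level of both Notch1 probe sets and of Hey1 (y axes), with 1 point per array and the groups by colour. The second Notch1 probe set is high on the 6 S-shaped body arrays, where the endothelial sum is at least 7206, while Hey1 is highest on the renal vesicle arrays, where it is at most 3302.

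Lfng, a fringe enzyme that adds sugars to Notch receptors and so alters which ligands they answer to, was near the limit of detection. Its levels were 5.36, 4.24 and 3.10 in single S-shaped bodies, 4.59, 3.71 and 3.79 in pooled ones, 5.79, 5.02 and 2.85 in renal vesicles, and 4.41, 5.22 and 4.38 in collecting duct. Just 4 of the 12 arrays were above background, 2 of them renal vesicles, and all groups overlapped. No comparison was called, with adjusted p-values from 0.463 to 0.919 (limma). Renal vesicle replicate 4, the lowest array, decides 1 of these: without it Lfng was lower in pooled S-shaped bodies than in renal vesicles (-1.37, adjusted p = 0.0300, limma). At this signal the 4 groups have no order.

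Dtx1, a Deltex protein that binds the intracellular part of Notch, was above background on every renal vesicle array and on few others. Its levels were 2.85, 2.85 and 5.03 in single S-shaped bodies, 2.85, 2.85 and 3.09 in pooled ones, 6.79, 5.53 and 6.03 in renal vesicles, and 4.86, 4.28 and 4.49 in collecting duct. The renal vesicle arrays lay above all 9 others, with 1 array above background among single S-shaped bodies, 0 among pooled ones and 1 in collecting duct. Dtx1 was higher in renal vesicles than in collecting duct by 1.57 ± 0.34 (adjusted p = 0.00690, limma), a call that was lost on the deposited scale (0.26, adjusted p = 0.552), where the arrays of both groups overlapped, and in a fit of all 12 arrays (adjusted p = 0.0589). It was at least 2.73-fold lower in pooled S-shaped bodies than in renal vesicles (adjusted p = 5.85e-05, limma). The values of pooled S-shaped bodies also passed the test as lower than those of collecting duct (adjusted p = 0.00337, limma), but all 3 pooled arrays and 2 of 3 collecting duct arrays lay under background, so no fold is given and the order is uncertain. Single S-shaped bodies, with 2 of 3 arrays under background, gave a fitted difference of -2.54 ± 0.65 against renal vesicles (adjusted p = 0.0194, limma), or -3.39 to -1.37 over the pseudocounts tried. This call was lost without renal vesicle replicate 2 or 4 or single S-shaped body replicate 3 or 4 (adjusted p = 0.0874, 0.0637, 0.0552 and 0.0560) and with no filter (0.0971). Against collecting duct they gave -0.97 ± 0.61 (adjusted p = 0.261, limma). Without single S-shaped body replicate 5 they were called lower (adjusted p = 0.0144, limma). Both single S-shaped body arrays left then stood at 2.85, and 2 of 3 collecting duct arrays lay under background. So no fold is given for that fit and the order is uncertain.

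Promoter sequence was at hand for 4 of the 6 genes in the RefSeq table of mouse build GRCm38.p6. The target genes Hey1 and Hes1 had no window there and were not searched. The 250 bases before the start are shown for Dll1 and Dtx1, which were highest in renal vesicles, and for Lfng, whose groups had no order, since its window held the matches described next. Capitals mark TGGGAA, the core that RBPJ reads, on either strand, and CACGTG, the E-box form that Hes and Hey proteins read, which overlaps one core in Lfng.
Dll1, chr17:15375824-15376073, minus strand: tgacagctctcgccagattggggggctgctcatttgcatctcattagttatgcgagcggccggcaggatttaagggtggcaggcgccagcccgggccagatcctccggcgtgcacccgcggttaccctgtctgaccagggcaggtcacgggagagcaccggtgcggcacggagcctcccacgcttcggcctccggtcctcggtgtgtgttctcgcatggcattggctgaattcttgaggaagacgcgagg
Dtx1, chr5:120711670-120711919, minus strand: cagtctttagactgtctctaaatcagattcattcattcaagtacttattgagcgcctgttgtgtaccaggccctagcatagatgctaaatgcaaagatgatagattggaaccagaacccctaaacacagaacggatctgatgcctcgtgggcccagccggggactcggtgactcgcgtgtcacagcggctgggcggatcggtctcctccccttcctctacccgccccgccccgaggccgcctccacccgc
Lfng, chr5:140607091-140607340, plus strand: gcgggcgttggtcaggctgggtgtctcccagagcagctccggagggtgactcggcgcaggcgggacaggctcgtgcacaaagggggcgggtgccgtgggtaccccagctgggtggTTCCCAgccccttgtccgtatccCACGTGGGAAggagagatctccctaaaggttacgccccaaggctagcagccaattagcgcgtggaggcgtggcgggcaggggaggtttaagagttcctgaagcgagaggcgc
The Lfng window held 2 RBPJ cores, 1 of them in the longer form GTGGGAA, and 1 E-box. The Dll1 and Dtx1 windows held 0 of these, as did the window of Notch1 and of the other annotated Dll1 start. The N-box CACNAG, another form that Hes proteins read, was searched on both strands too and is not marked. It occurred 1 time each in the Dtx1, Notch1 and Lfng windows and 0 times in both Dll1 windows. Among the 32851 promoter windows of the table, 21.6% held TGGGAA, 5.42% GTGGGAA, 6.02% CACGTG and 36.7% CACNAG. A match describes these letters only, and the Lfng window with matches belongs to the member whose signal was too low to order.

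Hey1, a repressor induced by Notch in many tissues, was called higher in each nephron group than in collecting duct. Its levels were 8.12, 8.90 and 8.11 in single S-shaped bodies, 8.51, 8.70 and 8.82 in pooled ones, 9.73, 10.33 and 10.03 in renal vesicles, and 4.09, 3.43 and 4.93 in collecting duct. Renal vesicle arrays were all highest, both S-shaped body groups lay between and overlapped each other, and collecting duct was lowest, with 1 of 3 arrays above background. Against collecting duct Hey1 was higher by 4.23 ± 0.43 in single S-shaped bodies (adjusted p = 0.000217, limma), by 4.52 ± 0.32 in pooled ones (adjusted p = 1.86e-06) and by 5.88 ± 0.32 in renal vesicles (adjusted p = 4.76e-07). These 3 comparisons share the same collecting duct arrays, of which 2 lay under background, so the sizes are fitted values that depend on the pseudocount, at 3.14 to 4.67, 3.42 to 4.97 and 4.73 to 6.33 over those tried. Against renal vesicles it was lower in single S-shaped bodies, with a difference of -1.65 ± 0.26 (adjusted p = 0.00221, limma), and in pooled ones, with -1.35 ± 0.32 (adjusted p = 0.00672), the second of which was not called on the deposited scale (-0.41, adjusted p = 0.443). Leaving out any 1 array, the pooled difference ranged from -1.50 to -1.20. Renal vesicle replicate 3 had the highest Hey1 level of its group (10.33) and the lowest Dll1 level (7.16). It also had the group's highest sums of endothelial (3302), podocyte precursor (5258), stromal (1470) and collecting duct markers (1150). Its early nephron sum (751) was the group's lowest. Its red blood cell sum (104) lay between those of replicates 4 (87.6) and 2 (763). The part of these lists in its values was not tested. Single and pooled S-shaped bodies differed by -0.30 ± 0.24 (adjusted p = 0.557, limma), less than their spread.

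Hes1, a repressor that Notch also induces and that many other signals reach, varied least. Its levels were 6.71, 6.74 and 6.35 in single S-shaped bodies, 6.09, 6.35 and 6.63 in pooled ones, 6.90, 6.68 and 6.29 in renal vesicles, and 6.93, 7.05 and 7.35 in collecting duct. Collecting duct arrays were all highest, and the 3 nephron groups overlapped each other. Hes1 was lower in pooled S-shaped bodies than in collecting duct, with a difference of -0.75 ± 0.23 (adjusted p = 0.0244, limma), the only called difference. That call was lost without pooled S-shaped body replicate 1 or 2 or collecting duct replicate 2 or 3 (adjusted p = 0.0929, 0.0588, 0.0529 and 0.0931). Against collecting duct it stood at -0.51 in single S-shaped bodies (adjusted p = 0.145, limma) and at -0.49 in renal vesicles (adjusted p = 0.154), differences that were called on the deposited scale (-3.37 and -2.06), where all probe sets shift. Hey1 and Hes1 are both Notch targets. Hey1 was called higher in each nephron group than in collecting duct, and Hes1 was not called higher in any of them. The collecting duct arrays stood highest for Hes1, but with 1 call that leaving out an array could remove, its order over the groups is uncertain.

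**Figure D3:**
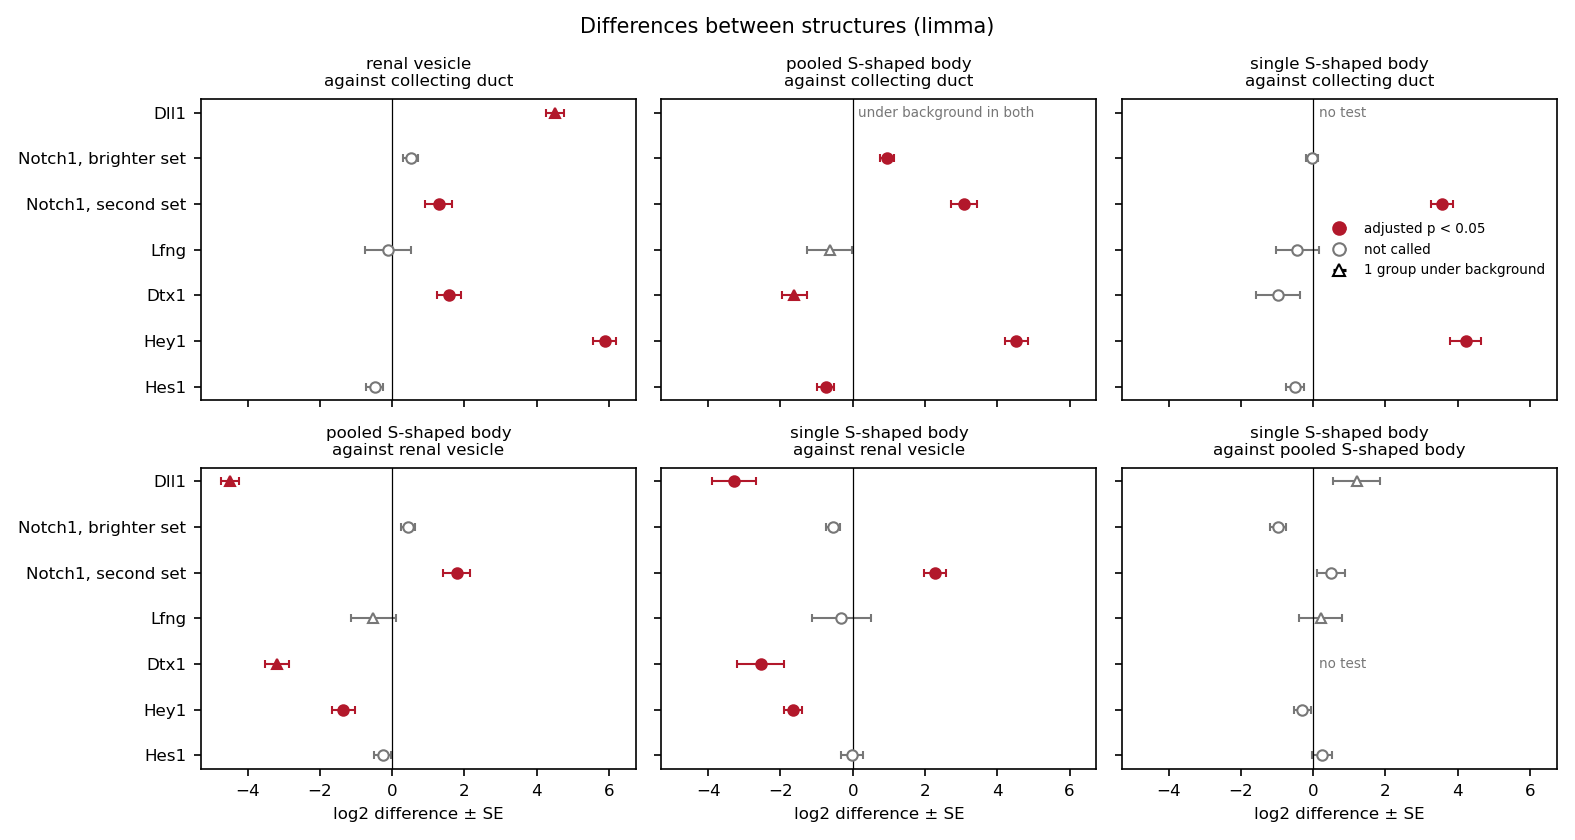
Log2 difference (x axis, with its standard error) of each gene in the 6 comparisons, 1 panel per comparison; filled points are called at an adjusted p below 0.05, open points are not, and triangles have 1 group under background on all its arrays, where the plotted value is the fitted one and not a bound. Dll1 and Hey1 reach 4.50 and 5.88 in renal vesicles against collecting duct, and Hes1 stays within 0.75 of 0 everywhere.

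Counted by comparison, 3 of the 6 genes were called higher and 0 lower in renal vesicles than in collecting duct, where 23.9% of all tested probe sets were called, 12.3% higher and 11.6% lower. Dll1, counted here and in pooled S-shaped bodies against renal vesicles, passed the filter through its renal vesicle arrays alone. Notch1 and Hey1 were called higher in pooled S-shaped bodies than in collecting duct and Dtx1 and Hes1 lower, 4 of 6 in all, beside 38.2% of probe sets called (18.2% higher, 20.0% lower), with the Dtx1 call resting on arrays mostly under background. Dll1, Dtx1 and Hey1, 3 of 6, were lower in pooled S-shaped bodies than in renal vesicles and 0 higher, beside 36.7% called, 17.5% higher and 19.2% lower. In single S-shaped bodies 1 of 5 tested genes was higher than in collecting duct (Hey1), beside 33.8% called, 16.0% higher and 17.9% lower. Without single S-shaped body replicate 5 there were 3 calls (Dll1 and Hey1 higher, Dtx1 lower), to which that 33.8% does not apply. Fits that left out 1 array called 2124 to 3310 of all probe sets in this comparison. The Dll1 and Dtx1 calls without replicate 5 each had 1 group wholly under background, so their order is uncertain. Against renal vesicles 3 of 6 were lower in single S-shaped bodies (Dll1, Dtx1 and Hey1), beside 27.1% called, 12.5% higher and 14.6% lower; these comparisons share the renal vesicle arrays. Between single and pooled S-shaped bodies limma called 0 of 5 tested genes, beside 0.397% of all probe sets. Of these genes 1 (Notch1) had an unadjusted p below 0.05 (limma), as did 1654 of the 9316 probe sets tested there. The median difference of the tested members was 1.04, -0.32, -0.94, -0.44, -1.10 and 0.20 in these 6 comparisons as listed, with fitted values also where a group lay under background, against -0.02, -0.07, -0.03, -0.07, -0.03 and -0.04 over all probe sets tested. Without normalisation between arrays, the median of all tested probe sets shifted to -1.39, -0.46, 0.94, -2.56, -1.06 and -2.20, so every direction here is relative to the other genes on the array. On that deposited scale Notch1 was called lower in renal vesicles than in collecting duct (-0.93, adjusted p = 0.00217, limma), the opposite of its sign above.

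Beyond the 6 genes, a list of 44 Notch pathway genes had 24 with a probe set, 18 of them not described so far. Of these 18, 2 were higher and 2 lower of 17 tested in renal vesicles against collecting duct, 4 and 2 of 17 in pooled S-shaped bodies against collecting duct, and 4 and 1 of 17 in pooled S-shaped bodies against renal vesicles. In single S-shaped bodies 1 was higher and 3 lower of 18 against collecting duct, 1 and 2 of 18 against renal vesicles, and 0 and 0 of 18 against pooled ones. The called genes were 23.5, 35.3, 29.4, 22.2, 16.7 and 0% of those tested in these comparisons as listed, in each at or below the share of all probe sets. The 9 genes called at least once were Notch4, Notch2, Numb, Notch3, Aph1a, Rbpj, Psenen, Rfng and Adam10.

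The other 3 Notch receptors did not move together. Notch4, a receptor found mainly in endothelium, read 5.73, 6.17 and 2.85 in single S-shaped bodies, 6.04, 5.16 and 5.63 in pooled ones, 5.24, 4.54 and 3.88 in renal vesicles, and 2.85 on all 3 collecting duct arrays. It was at least 1.87-fold higher in pooled S-shaped bodies than in collecting duct (adjusted p = 0.000166, limma), beside the endothelial sums given above. Notch2, the receptor that nephron formation in the mouse depends on most, read 8.06, 7.89 and 7.98 in single S-shaped bodies, 8.07, 8.33 and 8.70 in pooled ones, 10.65, 9.95 and 10.15 in renal vesicles, and 8.31, 8.85 and 9.46 in collecting duct. The renal vesicle arrays were above all others. Notch2 was lower in single S-shaped bodies than in renal vesicles, with -2.27 ± 0.21 (adjusted p = 0.000312, limma) and lower in pooled ones, with -1.89 ± 0.28 (adjusted p = 0.000463). It was higher in renal vesicles than in collecting duct by 1.38 ± 0.28 (adjusted p = 0.00516, limma), a difference of -0.03 on the deposited scale. Its other probe set was above background on 0 of 12 arrays. Notch3, a receptor best known in vascular smooth muscle, read 7.50, 6.83 and 7.61 in single S-shaped bodies, 7.82, 7.62 and 7.16 in pooled ones, 8.13, 7.30 and 7.84 in renal vesicles, and 8.72, 8.93 and 8.91 in collecting duct, where every array was above those of the other groups. It was lower than in collecting duct in single S-shaped bodies (-1.54, adjusted p = 0.00167, limma), in pooled ones (-1.32, adjusted p = 0.00101) and in renal vesicles (-1.09, adjusted p = 0.00596).

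Among the genes that process or transmit the signal, 2 of 3 measured subunits of gamma-secretase were called higher in pooled S-shaped bodies than in renal vesicles and collecting duct. The third, Psen2, which holds the catalytic site in some complexes, averaged 4.67 in pooled S-shaped bodies, 4.88 in renal vesicles and 4.56 in collecting duct and was called in no comparison. Aph1a read 7.65, 7.65 and 7.90 in single S-shaped bodies, 7.57, 6.92 and 7.29 in pooled ones, 6.34, 6.25 and 6.59 in renal vesicles, and 6.47, 6.67 and 6.45 in collecting duct, with no overlap between either S-shaped body group and the other structures. In pooled S-shaped bodies it was higher by 0.87 against renal vesicles (adjusted p = 0.00804, limma) and by 0.73 against collecting duct (adjusted p = 0.0188), the second lost on the deposited scale and without pooled S-shaped body replicate 1 or 3 or collecting duct replicate 1 or 3 (adjusted p = 0.0531 to 0.340). It was higher in single S-shaped bodies by 1.34 against renal vesicles (adjusted p = 0.00526, limma) and by 1.20 against collecting duct (adjusted p = 0.00318), and both signs turned on the deposited scale (-0.09 and -1.79). Psenen was higher in pooled S-shaped bodies by 0.91 against renal vesicles (adjusted p = 0.00262, limma) and by 0.79 against collecting duct (adjusted p = 0.00529, or 0.301 on the deposited scale). Rfng, a fringe enzyme like Lfng, differed by 0.72 and 0.60 in the same 2 comparisons (adjusted p = 0.0189 and 0.0417, limma), calls lost without pooled S-shaped body replicate 1 or 3 or renal vesicle replicate 2 or 4 in the first (adjusted p = 0.0532 to 0.0703) and without pooled S-shaped body replicate 1 or 3 or any 1 collecting duct array in the second (0.0558 to 0.122). The second was also lost on the deposited scale (0.14, adjusted p = 0.739) and with 75th percentile scaling, no filter, no mean-variance trend or all 12 arrays in the fit (0.0531 to 0.0834). Adam10, the protease that makes the first cut, was lower than in collecting duct, at -0.57 in pooled S-shaped bodies and -0.51 in renal vesicles (adjusted p = 0.0151 and 0.0373, limma). The first was lost without pooled S-shaped body replicate 2 or 3 or collecting duct replicate 1 or 3 (adjusted p = 0.0518 to 0.0586), and the second without any 1 renal vesicle array or collecting duct replicate 1 or 3 (0.0556 to 0.116). The second was also lost with 75th percentile scaling, no mean-variance trend, all 12 arrays in the fit or the replicate block (0.0681 to 0.127). The other Adam10 probe set, above background on 1 of 12 arrays, had the opposite sign (1.03 and 0.98) and was not called. Numb, an inhibitor of Notch, was lower in single S-shaped bodies than in collecting duct, with -1.70 ± 0.42 (adjusted p = 0.0146, limma), lost without collecting duct replicate 1 or 3 (adjusted p = 0.0698 and 0.0621). Its other probe set, above background on 7 of 12 arrays, gave no call there (-1.13, adjusted p = 0.215, limma). That set was called lower in pooled S-shaped bodies than in collecting duct (-1.15, adjusted p = 0.0291, limma), where the brighter one was not (-0.87, adjusted p = 0.0576). Rbpj, the DNA-binding partner of the receptor, was under background on all 3 single S-shaped body arrays and at least 1.53-fold lower there than in renal vesicles (adjusted p = 0.0334, limma), a call lost without any 1 renal vesicle array or single S-shaped body replicate 3 or 4 (adjusted p = 0.0529 to 0.120). Hes5, another Hes target, was above background on 0 of 12 arrays.

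**Figure D4:**
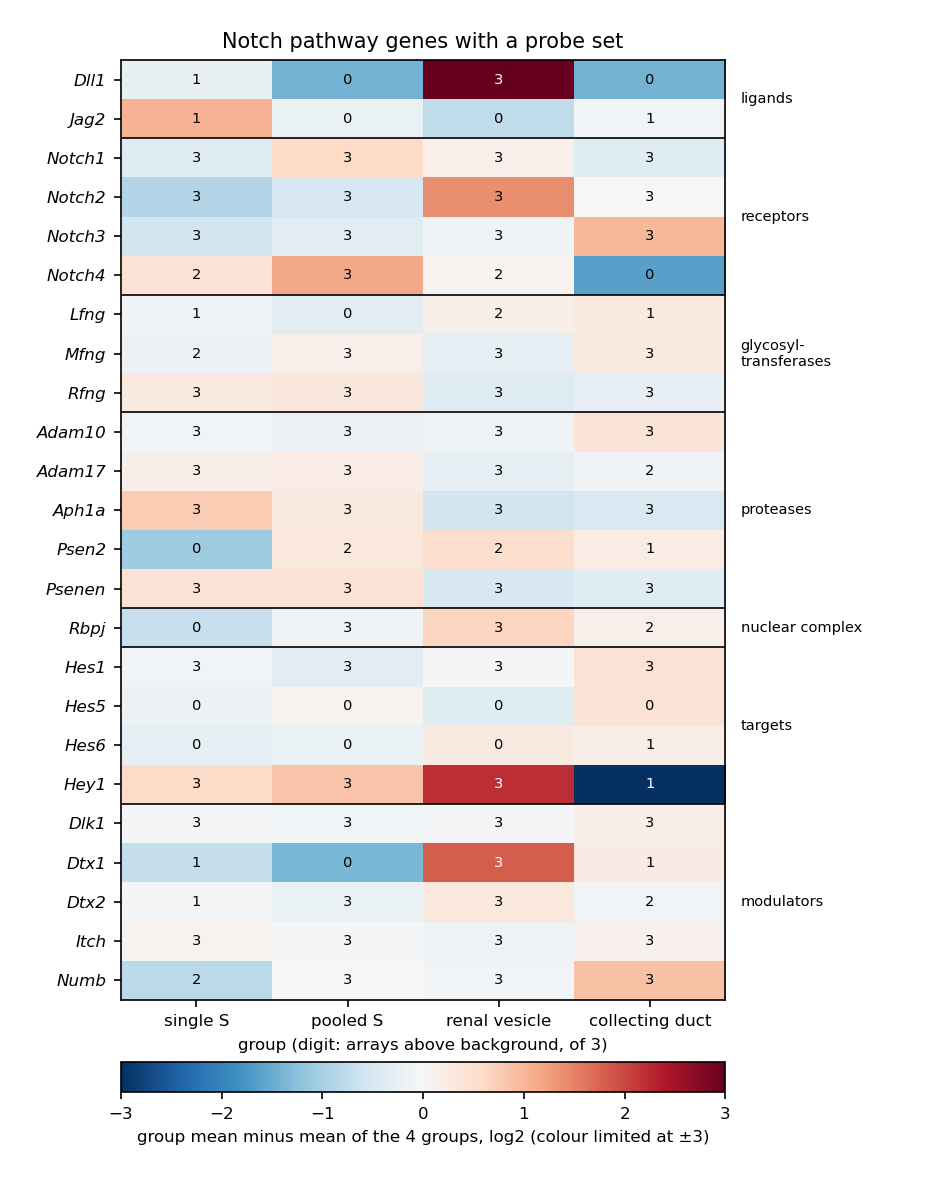
Levels of the Notch pathway genes with a probe set (rows, by role) in the 4 groups (columns); the digit in a cell is the number of its 3 arrays above background and the colour is the distance of its mean level from the gene's mean over groups. Dll1, Dtx1, Hey1 and Notch2 are highest in the renal vesicle column and Notch3 and Hes1 in the collecting duct column.

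The genes whose pattern over the 12 arrays was nearest to each member were found by the root mean square difference of centred log2 levels, over 6755 candidate genes. For Dll1 these were Car14, Kazald1 and Chst2, at 0.39, 0.59 and 0.69, where a flat gene would stand at 1.92. For Hey1 they were Hoxc9, Prnp and Ltbp1, at 0.44, 0.45 and 0.60, against 2.23 for a flat gene. For Dtx1 they were Rrp1b, Lig1 and Gjb2, at 0.64, 0.65 and 0.66, against 1.34. The second Notch1 probe set had Pecam1, Des and Myo10 nearest, nearly tied at 0.40, 0.41 and 0.41, against 1.49. The brighter Notch1 probe set, Lfng and Hes1 varied little, at 0.46, 0.86 and 0.34, and their nearest genes (S100a8, Nhp2 and Ankrd10; Barx1, Pklr and H2-Q1; Pias3, Aldoa and Rnf20) lay at 0.26, 0.54 to 0.58 and 0.18 to 0.19. These values describe the 12 arrays, on which all genes share the same libraries.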

How the data were processed

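RNA of 12 samples was measured on Affymetrix MG_U74Av2 arrays. The deposited table holds linear intensities, with negative values, that the authors made with GCOS per the submitters' processing notes; how it scaled and summarised probes is not stated. For the report, 66 control probe sets were dropped, the other 12422 were quantile normalised, floored at 0 and put on a log2 scale after adding 7.22, which is 25% of the overall median; the deposited values are linear, so the log2 step was made here. Probe sets with a mean below the 25th percentile of the arrays in the fit were left out. limma 3.58.1 in R 4.3.3 (lmFit, contrasts, eBayes with a trend) was fitted to 9 arrays for the 3 groups other than single S-shaped bodies, and to 6 arrays for each comparison of single S-shaped bodies; its use was tested on simulated data. The number of arrays limits the precision. A gene's value is that of its brightest probe set. Of 12422 probe sets 10833 had 1 symbol, 396 several and 1193 none. The members, gene lists and tests were chosen with earlier results of these data known. Named beside the members are pathway genes called at least once, with their largest changes, and the 3 genes most like each member. Replicate numbers did not pair the arrays (correlations of -0.08 to 0.04 over 11 pairs of the same number). Alternatives were 2 pseudocounts, 2 scalings, 2 filters, other fits, a replicate block and leaving out each array.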

Additional observations from a re-analysis of the deposited data

Results flagged for a closer look

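Dll1, Dtx1 and Hey1 had effects against collecting duct that differed between pooled S-shaped bodies and renal vesicles, by the test of the difference itself, which is the pooled S-shaped body against renal vesicle comparison (limma). The difference was -4.50 for Dll1 (adjusted p = 2.29e-06), -3.18 for Dtx1 (adjusted p = 5.85e-05) and -1.35 for Hey1 (adjusted p = 0.00672), with the 3 pooled S-shaped body arrays below the 3 renal vesicle arrays in each case. The values for Dll1 and Dtx1 are fitted ones with pooled S-shaped bodies under background, and are not bounds. Dll1 entered this test through its renal vesicle arrays alone. Dll1 and Dtx1 were called in the alternatives that tested them, and Hey1 in all but the deposited scale.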

How the results depend on the processing

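The 12 arrays, 3 to a group, limit the precision, and Dll1, Lfng and Dtx1 lie near background on most arrays. Over 39 member results, 576 of 644 alternative values kept direction and side of the threshold, 21 lost a call, 21 gained one and 26 changed sign. Hey1 against collecting duct, Dll1 in renal vesicles against collecting duct, and Dll1 against renal vesicles stayed called wherever tested. A filter at the 50th percentile left Dtx1 and Lfng untested, and Dll1 too except in single S-shaped bodies against renal vesicles. With it only Notch1, Hey1 and Hes1 were tested in renal vesicles against collecting duct and in pooled S-shaped bodies against renal vesicles. Of these, 1 was called in each (Hey1). The main filter called 23.9% and 36.7% of all probe sets there. Dll1 and Dtx1, called there with the main filter, were not tested, so the lower count is no loss of a call.

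On the deposited scale the probe sets called came to 7268 in renal vesicles against collecting duct, 5432 in pooled S-shaped bodies against renal vesicles, 8299 in single S-shaped bodies against collecting duct, 8345 against pooled ones and 4349 against renal vesicles, against 2225, 3423, 3152, 37 and 2525 after normalisation. Members called were then 5, 4 and 5 in the last 3 comparisons. Signs that turned there were those of Notch1 (-0.93; second probe set -0.18) and Notch2 (-0.028) in renal vesicles against collecting duct; Lfng (0.22) and Hes1 (0.85) in pooled S-shaped bodies against renal vesicles; Lfng (-1.29), Hes1 (-2.15) and the second Notch1 probe set (-2.14) in single against pooled S-shaped bodies; and Aph1a in single S-shaped bodies (-1.79 against collecting duct, -0.091 against renal vesicles). The cause was not tested beyond the unequal brightness of the arrays.

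In single against pooled S-shaped bodies 146 probe sets were called with 75th percentile scaling, 19 with the 50th percentile filter, and 424 with 1 member in a fit of all 12 arrays. Averaging a gene's probe sets, Notch1 gave 1.76 against collecting duct (2 members called) and 0.87 against renal vesicles in single S-shaped bodies, 0.90 in renal vesicles against collecting duct and 1.11 in pooled S-shaped bodies against renal vesicles, all called (adjusted p = 0.000306, 0.0196, 0.0339 and 0.00788). Lfng gave 0.055 in renal vesicles against collecting duct with a pseudocount equal to the median, and Hes1 0.0064 in single S-shaped bodies against renal vesicles with 75th percentile scaling.

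With the replicate number as a block, 1383 probe sets were called in renal vesicles against collecting duct and 1113 when single S-shaped bodies were set against renal vesicles; Lfng gave 0.81 and 0.86 there, and Hes1 0.24 in the second. In pooled S-shaped bodies against renal vesicles the block called Lfng (adjusted p = 0.0434) and lost Rfng (0.131). No array correlated best with its own number (0 of 12), which single S-shaped body replicate 5 could not do, as no other group holds that number. Single S-shaped bodies share only 1 number with collecting duct and with pooled ones, so no block was fitted there.

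Leaving out each array in turn, probe sets called ranged from 1 to 72 in single against pooled S-shaped bodies and from 1539 to 2344 in single S-shaped bodies against renal vesicles. In single S-shaped bodies against collecting duct, members called ranged from 1 to 3, beside 2124 to 3310 of all probe sets. Values that changed sign had these ranges: Lfng -0.73 to 0.74 in renal vesicles against collecting duct, -1.37 to 0.095 in pooled S-shaped bodies against renal vesicles, and in single S-shaped bodies -1.002 to 0.13, -0.36 to 0.77 and -1.17 to 0.30 against collecting duct, pooled ones and renal vesicles; Notch1 -0.14 to 0.088 in single S-shaped bodies against collecting duct; Hes1 -0.19 to 0.12 in single S-shaped bodies against renal vesicles.

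For the 9 other pathway genes, 22 called differences had 382 alternative values, added after seeing the data: 314 stayed called, 65 lost the call and 3 changed sign, the Notch2 and Aph1a values above. Notch4 in pooled S-shaped bodies against renal vesicles lost its call in 12 of 18.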
